A study of Mus musculus with 48 samples.

Results

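The immunoglobulin constant region genes were read as a group of 10 genes taken by name from the deposited table, out of the 34586 genes it holds. The 10 genes were 5 heavy chain constant region genes (*Ighm*, *Ighd*, *Ighg1*, *Ighg2b*, and *Igha*), 4 light chain constant region genes (*Igkc*, *Iglc1*, *Iglc2*, and *Iglc3*), and *Jchain*. All 10 genes were detected, and together they held 83030 of the 10646725 unique molecular identifiers (UMIs) of the annotated cells, or 0.780%. *Ighg3* and *Ighg2c*, which belong to the same family but not to the 10 genes, were counted only where the class of a cell or of a sample was read.

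An antibody is built of heavy and light chains, and the constant region of the heavy chain sets its class. Naive B cells carry IgM and IgD on their surface, and after activation a B cell can switch to IgG, IgA, or IgE by DNA recombination at the heavy chain locus. The light chain is either kappa or lambda, and a given B cell normally keeps a single light chain and a single heavy chain. Plasma cells, the antibody-secreting end stage, fill a large part of their mRNA with these transcripts and express *Jchain*, which encodes the peptide that joins IgM and IgA units. The spleen is a major site of B cells and of short-lived plasma cells.

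The cells came from male DBA1/J mice, of which 4 were healthy controls given PBS and 6 had collagen-induced arthritis (CIA) after bovine type II collagen in complete Freund's adjuvant and a booster in incomplete adjuvant. Complete adjuvant holds mycobacteria, and the PBS injections of the control mice are not described as holding adjuvant. CIA mice S1, S2, and S3 had an arthritis score of 8, S5 of 4 to 5, S6 of 3 to 4, and S8 of 2 to 3. S1, S2, S3, and healthy mouse H3 carry the suffix 2CIA, and S5, S6, S8, and healthy mice H4, H6, and H7 the suffix CIA, so that severity and experiment cannot be told apart among the CIA mice. Spleen, muscle, lung, and skin were measured in 4 healthy and 6 CIA mice each and joint in 3 healthy and 5 CIA mice, which gave 48 samples. Single cells were captured with Seq-Well, in which each cell shares a nanowell with a barcoded bead, from organs that had been cryopreserved.

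The annotated cells numbered 12096, with 410 to 6239 UMIs each and a median of 675. Total UMIs per sample were 95313 to 411178 in healthy and 107538 to 862294 in CIA spleen, and 55963 to 363842 in healthy and 33628 to 1645734 in CIA muscle. Red blood cells had been lysed in every spleen sample, and in muscle only in H6, H7, S2, S3, S6, and S8, according to the authors' sample list. A total of 59 cell barcodes occurred in 2 or more samples, on 112 annotated cells. Of these barcodes, 36 were found in both muscle and spleen of S8, with a correlation of their counts of at least 0.829, the same label in 34, and more UMIs in muscle in 36 of 36. Such cells held 52.5% of the UMIs on the 10 genes in muscle S8 and 45.8% in spleen S8. The S8 shares of UMIs and the mean shares of very high cells are therefore also given without them. So are the classes of very high cells in CIA muscle and the calls in all spleen cells. The CPM of single genes in S8, the muscle fold changes, and the interaction are given with these cells only. Cells labeled Myocytes in muscle had few counts on skeletal muscle fiber markers chosen here. The markers that the paper lists for this label were not counted. The 1492 cells so labeled in muscle S6 had 2573 counts per 1000000 UMIs (CPM) on 5 B cell markers and 35.8 CPM on 7 skeletal muscle fiber markers, where cells labeled B cells in spleen had 2889 and 52.2 CPM. The same cells had 13025 CPM on 6 granulocyte markers and 975 on 7 monocyte and macrophage markers, against 4014 and 398 in the spleen B cells, so they are called by their label.

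Several of the 10 genes are close relatives, which bears on how short reads can be assigned to them. The last 30 coding bases on GRCm38, a genome built from C57BL/6J and not DBA1/J mice, are shown for the lambda and the IgG genes because class and light chain use rest on telling these genes apart. They are read 5′ to 3′ from the minus strand, and capitals mark positions at which the genes of a family differ (7 positions in the lambda genes and 12 in the IgG genes).
Iglc1, chr16:19061755-19061784: gagaagagtTtgtcCcGtgcTgaCtgtTCc
Iglc2, chr16:19198539-19198568: gagaagagtCtgtcTcCtgcAgaAtgtCTc
Iglc3, chr16:19065368-19065397: gagaagagtCtgtcTcCtgcAgaAtgtCTc
Ighg1, chr12:113328979-113329008: GAGaagaGcCtCtcCcACtcTcCTggtaaa
Ighg2b, chr12:113306392-113306421: AAGaagaCcAtCtcCcGGtcTcCGggtaaa
Ighg2c, chr12:113287392-113287421: ACTaagaCcAtCtcCcGGtcTcTGggtaaa
Ighg3, chr12:113359668-113359697: CAGaagaAcCtGtcTcGCtcCcCTggtaaa
*Iglc2* and *Iglc3* have the same letters here, their coding sequences were 96.2% identical, and 10.5% of the 50-base windows of the *Iglc2* exons occur unchanged in *Iglc3*. *Iglc1* was 73.4% identical to *Iglc2*, and *Ighg1* 74.8% identical to *Ighg2b*, with no window in common. *Ighg2b* and *Ighg2c* were 85.7% identical, with 5.26% of windows in common. The split of counts between *Iglc2* and *Iglc3*, and between *Ighg2b* and *Ighg2c*, is therefore uncertain. *Ighm* (chr12:113418558-113422730), *Ighd* (chr12:113406604-113416324), *Ighg1*, *Ighg2b*, and *Igha* (chr12:113254830-113260236) follow each other on the minus strand, *Igkc* lies at chr6:70726435-70726966 on the plus strand, and *Jchain* at chr5:88519809-88527891 on the minus strand.

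Spleen and muscle together carried nearly all of the signal. Spleen held 48186 UMIs on the 10 genes (58.0% of the total, and 1.76% of the UMIs of spleen) and muscle 33033 (39.8% of the total, and 0.879% of the UMIs of muscle). Joint held 1304, lung 503, and skin 4. *Igkc* was the most counted of the 10 genes, with 39120 UMIs, followed by *Ighm* with 16948. The organs differed in the classes that were counted. *Ighg1*, the IgG1 heavy chain, had 227 UMIs in spleen and 2595 in muscle, whereas *Igha*, the IgA heavy chain, had 265 in spleen and 35 in muscle. These totals are sums over cells and mice and carry no test.

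The UMIs were spread unevenly over cells. No UMI on the 10 genes was found in 5175 cells (42.8%), whereas 120 cells (0.992%) held 53.7% of all UMIs on the 10 genes. These 120 cells, called very high here, were those in which the 10 genes took at least 10% of a cell's UMIs. The 2 cells just below that limit had 9.85% and 9.92%, and the 2 just above had 10% and 10.8%. There were 32 cells between 5% and 10%, 31 between 10% and 20%, and 89 at 20% or more. Spleen had 87 very high cells, muscle 30, lung 2, joint 1, and skin 0 of 1167. The shares of very high cells recorded after thinning each cell to 400 UMIs were identical to the unthinned shares in every digit. A random draw can move cells that lie this close to the limit. The identical values are therefore not taken as a check of the limit against depth.

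**Figure D1:**
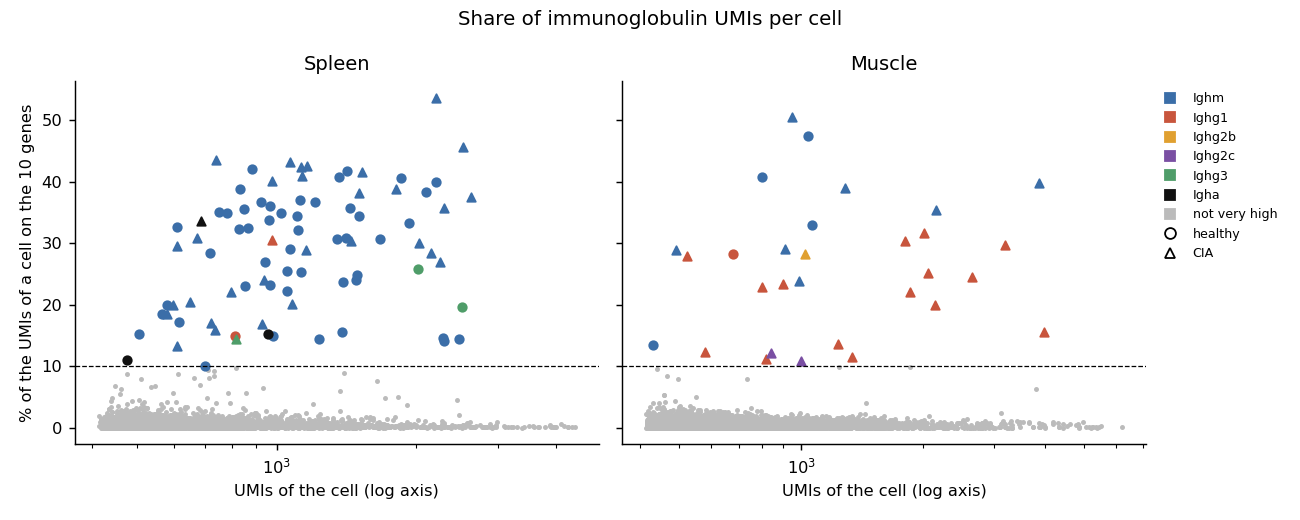
Each point is an annotated cell of spleen (left) or muscle (right), with its UMIs on the x axis (log scale) and the percent of them on the 10 genes on the y axis, and the dashed line marks 10%. Colors give the leading heavy chain gene of the very high cells, circles healthy and triangles CIA mice. *Ighm* (blue) leads 79 of 87 very high cells in spleen, and *Ighg1* (red) leads 16 of 30 in muscle.

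In spleen, the immunoglobulin genes took a smaller share of UMIs in CIA mice than in healthy mice, with no overlap between the mice of the groups. The 10 genes held 3.48%, 3.46%, 2.36%, and 3.20% of UMIs in healthy mice H3, H4, H6, and H7 (mean 3.13% ± 0.525, SD, n = 4). In the CIA mice the share was between 0.818% (S3) and 1.64% (S8), with a median of 1.19% and a mean of 1.17% ± 0.282 (SD, n = 6). Without the cells whose barcode was shared, spleen S8 had 1.02%. As these are sums over the cells of an organ, fewer cells of a type and less RNA per cell cannot be told apart in them.

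The very high cells were also fewer among the cells of CIA spleen. They made up 6.06% (10 of 165), 5.89% (29 of 492), 4.51% (6 of 133), and 4.15% (9 of 217) of the spleen cells of H3, H4, H6, and H7. In S1, S2, S3, S5, S6, and S8 they made up 1.34% (6 of 447), 1.65% (15 of 911), 1.95% (3 of 154), 1.39% (5 of 359), 0.671% (1 of 149), and 1.02% (3 of 293). The means were 5.15% ± 0.965 (SD, n = 4) in healthy and 1.34% ± 0.450 (SD, n = 6) in CIA mice, and the mice did not overlap. The 95% Wilson intervals of single mice were wide, from 3.32% to 10.8% in H3 and from 0.119% to 3.70% in S6, and they cover counting error only. Without shared barcodes the means were 5.22% and 1.23%. Outside the very high cells, the 10 genes took 0.984% ± 0.219 (SD, n = 4) of UMIs in healthy and 0.568% ± 0.2003 (SD, n = 6) in CIA mice, and the ranges of 0.705% to 1.21% and 0.355% to 0.814% overlapped.

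**Figure D2:**
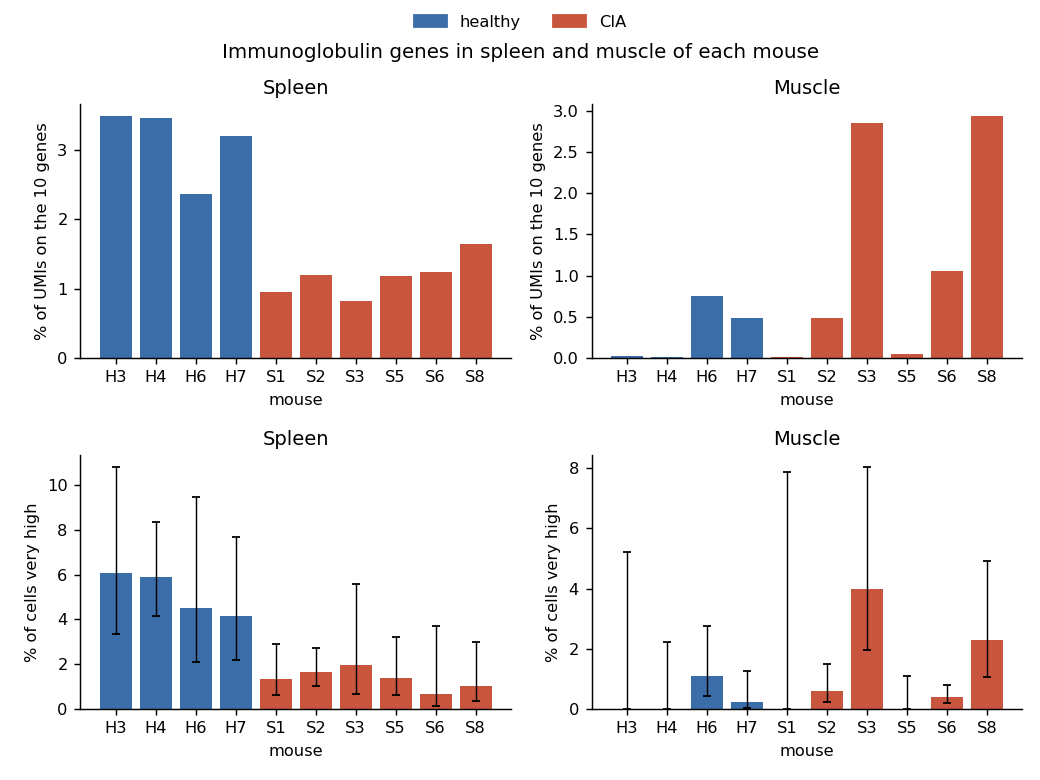
Bars show, for each mouse, the percent of UMIs on the 10 genes (top) and the percent of annotated cells that were very high (bottom, with 95% Wilson intervals as error bars) in spleen (left) and muscle (right). In spleen each healthy mouse (blue) is above each CIA mouse (red) in both measures, whereas in muscle H3, H4, S1, and S5 are near 0.

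The share of cells with the label B cells moved the same way but overlapped, with a mean of 48.9% ± 9.13 (SD, n = 4) in healthy and 34.1% ± 17.7 (SD, n = 6) in CIA mice. Summed CPM of the 5 B cell markers were 1113 to 2255 in healthy and 521 to 1657 in CIA spleen. Summed CPM of the 8 plasma cell markers, among them *Xbp1* and *Mzb1*, which act in antibody folding and secretion, were 839 to 1616 in healthy and 430 to 744 in CIA spleen and did not overlap. The part of these cell numbers in the levels of the 10 genes was not tested.

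*Igkc*, the kappa light chain, was at 16707, 17241, 9841, and 12521 CPM in spleen of H3, H4, H6, and H7. It was at 4110 to 9545 CPM in CIA spleen, with a median of 5158. The highest CIA value, in S8, was just under the lowest healthy value, in H6. *Ighm*, the IgM heavy chain, was at 4848, 7848, 3746, and 6503 CPM in healthy spleen and at 1916 to 3534 CPM in CIA spleen, with a median of 2819. The groups did not overlap.

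*Jchain* showed the widest gap relative to its level. It was at 4300, 4400, 2623, and 4258 CPM in healthy spleen and at 194 to 1240 CPM in CIA spleen, with a median of 965. The lowest CIA value was that of S6, which had a single very high cell. *Iglc2*, a lambda light chain, was at 3582, 3123, 2140, and 6764 CPM in healthy spleen and at 660 to 2098 CPM in CIA spleen, and *Iglc3* was at 889, 793, 828.8, and 1157 against 180 to 724 CPM. Neither lambda gene overlapped between the groups.

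The mice of the groups thus did not overlap in 5 of the 10 genes, with CIA mice lower, against 1.57% of 2927 genes tested. The other 5 genes overlapped. *Iglc1* was at 3869 and 4029 CPM in H3 and H6 but at 552 and 370 in H4 and H7, and ranged from 139 to 1694 CPM in CIA spleen. *Igha* was at 12.2 to 503 CPM in healthy and 9.30 to 142 in CIA spleen. *Ighd*, the IgD heavy chain of naive B cells, was at 135 to 474 CPM in healthy and 65.1 to 273 in CIA spleen. *Ighg1* and *Ighg2b* were low, at 0 to 114 and 8.98 to 48.6 CPM in healthy and 0 to 368 and 0 to 67.3 CPM in CIA spleen.

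**Figure D3:**
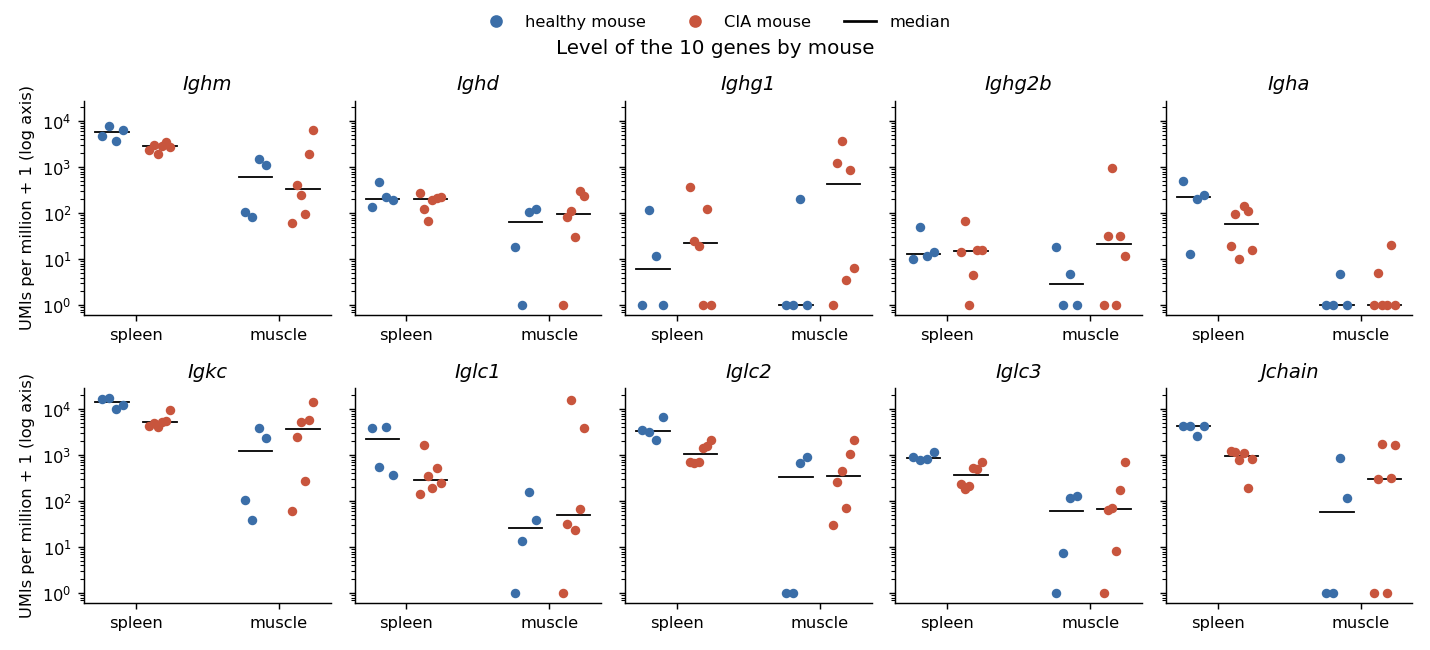
Each panel shows a gene, each point a mouse, and each bar the median of a group, as CPM plus 1 on a log axis, in spleen and muscle of healthy (blue) and CIA (red) mice. *Ighm*, *Igkc*, *Iglc2*, *Iglc3*, and *Jchain* do not overlap between the groups in spleen, and all 10 genes overlap in muscle.

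In the test over all genes, 8 of the 10 genes passed the filter on low counts in spleen, all 8 were lower in CIA mice, and 0 passed the adjusted threshold of 0.05 (the quasi-likelihood test of edgeR with Benjamini-Hochberg adjustment), against 0.137% of 2927 genes tested. The log2 fold change was −2.10 (SE 0.40, adjusted p = 0.0701) for *Jchain*, −1.33 (SE 0.26, adjusted p = 0.0701) for *Igkc*, and −1.70 (SE 0.35, adjusted p = 0.0916) for *Iglc2* with edgeR. For *Ighm* it was −1.06 (SE 0.26, adjusted p = 0.139), for *Iglc3* −1.23 (SE 0.34, adjusted p = 0.227), for *Iglc1* −1.88 (SE 0.79, adjusted p = 0.688), for *Igha* −1.69 (SE 0.79, adjusted p = 0.769), and for *Ighd* −0.55 (SE 0.43, adjusted p = 0.967) in the same edgeR test. The median over the 8 genes was −1.51, and over all genes tested −0.01. At an unadjusted p under 0.05 there were 6 of the 8 genes, against 6.46% of all genes. Other tools and terms called from 0 to 5 of the genes, and DESeq2 called *Ighm*, *Igkc*, *Iglc2*, and *Jchain*. Without the cells with shared barcodes edgeR called *Igkc*.

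Read by cell type label, the very high cells in spleen stood mostly under Monocytes (65 of 87), with 11 under B cells. Among the 528 spleen cells labeled Monocytes, 40 of 172 were very high in healthy mice (23.3%) and 25 of 356 in CIA mice (7.02%). This label held 58.8% of the spleen UMIs on the 10 genes, and the label B cells 23.9%. The 10 genes took 5.45% of the UMIs under the label Monocytes and 0.400% once the very high cells were left out.

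Pooled over their labels, the very high cells were higher in plasma cell genes than other cells, and lower in the monocyte and B cell genes given here than cells of those labels that were not very high. As CPM of the UMIs outside the immunoglobulin genes, the 87 very high spleen cells had 5888 on *Mzb1* and 1726 on *Xbp1*, against 264 and 125 in all other spleen cells, and both were higher in 10 of 10 samples. *Tnfrsf17*, which encodes the plasma cell survival receptor BCMA, was at 93.7 against 0.767, from 7 UMIs, and was higher in 5 of 10 samples. The other plasma cell markers *Sdc1*, *Irf4*, *Prdm1*, *Derl3*, and *Fkbp11* were higher in 4, 4, 5, 3, and 7 of 10 samples. Their UMIs in the very high cells were 10, 8, 8, 3, and 17. *Irf4* was at 107, against 117 in cells labeled B cells that were not very high. *Lyz2*, the lysozyme of monocytes and granulocytes, was at 1071, against 8591 in other cells labeled Monocytes. *Cd68* and *F13a1*, monocyte and macrophage markers, were at 0. *Ms4a1*, which encodes the B cell surface protein CD20, was at 335 against 865 in cells labeled B cells that were not very high. In muscle the 30 very high cells had 6354 on *Mzb1* and 1919 on *Xbp1*, against 184 and 196 in other cells, higher in 6 of 6 samples. There *Sdc1*, *Irf4*, *Prdm1*, *Tnfrsf17*, *Derl3*, and *Fkbp11* were higher in 3, 3, 2, 2, 1, and 4 of 6 samples. Their UMIs in the very high muscle cells were 5, 5, 2, 2, 1, and 7. *Lyz2* was at 503, against 8939 in other muscle cells labeled Monocytes. *Ms4a1* was at 157 against 1333.5 in muscle cells labeled B cells, and *Cd79b* at 598 against 617.

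Under the label Monocytes in spleen, 5 of the 6 genes tested fell in CIA mice, against 2.41% of 456 genes that fell in this comparison. *Iglc2* was at 4742, 6014, 1471, and 17227 CPM in H3, H4, H6, and H7, and at 491 to 1177 CPM in the CIA mice, without overlap. *Iglc3* was at 876, 986, 581, and 1510 CPM in healthy and at 131 to 444 CPM in CIA mice, also without overlap. *Jchain* was at 16905, 14680, 8635, and 20288 CPM in healthy and at 281 to 7825 CPM in CIA mice. In each of the 3 genes the lowest healthy value was that of H6, still above all CIA mice, and 1.54% of the 456 genes were separated in this way. The groups overlapped in *Igkc* and *Ighm*, which also fell. *Igkc* was at 28266 CPM in H6 and 36745 CPM in CIA mouse S8, and *Ighm* at 11229 CPM in H6 and 11749 CPM in CIA mouse S6.

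*Iglc2* fell by 3.65 on the log2 scale (SE 0.55, adjusted p = 0.00272, edgeR) and *Iglc3* fell by 2.26 (SE 0.37, adjusted p = 0.00420, edgeR). *Jchain* fell by 2.28 (SE 0.59, adjusted p = 0.0398), *Igkc* fell by 1.68 (SE 0.41, adjusted p = 0.0364), and *Ighm* fell by 1.36 (SE 0.34, adjusted p = 0.0371) in the same edgeR test. *Iglc1* had a log2 fold change of −2.95 (adjusted p = 0.193, edgeR). *Mzb1* fell by 2.02 (adjusted p = 0.0354, edgeR), and the median over all genes was 0.01. Without the very high cells the test called *Iglc2* (−1.64, adjusted p = 0.0492, edgeR) and *Iglc3* (−1.63, adjusted p = 0.0491, edgeR), and *Igkc* had −1.24 (adjusted p = 0.0842) and *Ighm* −0.92 (adjusted p = 0.150, edgeR). *Iglc2* and *Iglc3* were also called by edgeR without any single mouse, whereas leaving out any of the healthy mice, S2, or S5 ended the other 3 calls, and leaving out S1, S3, S6, or S8 ended 1 or 2 of them. With plain library sizes, which moved the median of all genes by 0.35, *Iglc2* had −3.24 and *Iglc3* −1.88, and the other 3 genes were not called.

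Among the 1182 cells labeled B cells in spleen, 7 of the 10 genes were tested and 0 were called by edgeR, against 0.0% of 1252 genes, with 3.19% of all genes and 2 of the 7 at an unadjusted p under 0.05, and DESeq2 called 0 of 10. *Iglc2* had the smallest p of the 7, with a log2 fold change of −0.91 (SE 0.26, adjusted p = 0.389, edgeR). *Jchain* had −1.44, *Iglc3* −0.68, *Igkc* −0.47, *Ighm* −0.44, *Ighd* 0.01, and *Iglc1* 0.24 (adjusted p = 0.999 for each of the 6, edgeR). Outside the very high cells, the 10 genes took 1.06% to 1.48% of the UMIs of healthy B cells, with a median of 1.33%, and 0.810% to 1.296% of those of CIA B cells, with a median of 0.890%. Under the label NK cells 4 genes were tested and 0 were called by edgeR, against 0.0% of 421 genes, with 1 at an unadjusted p under 0.05 (2.61% of all genes) and 0 called by DESeq2.

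An ordinary B cell held few of these UMIs. The 1171 spleen cells labeled B cells that were not very high had a median of 6 UMIs on the 10 genes (quartiles 4 and 9), or 1.02% of their UMIs, where the very high spleen cells had a median of 324 and 30.4%. *Ighm* was found in 53.7% of these cells, *Ighd* in 23.1%, and *Jchain* in 9.82%. Of the 637 cells with at least 5 light chain UMIs, 96 had at least 80% kappa, 99 at least 80% lambda, and 442 lay between. Lambda took 48.9% of the light chain UMIs pooled over the 1171 cells. Classed by the chain type with more UMIs, 9 of the 87 very high spleen cells (10.3%) were lambda. The former is a share of UMIs and the latter a share of cells, so they are not compared.

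The 10 genes were also counted in cells of other labels. Outside the very high cells they took 1.125% of UMIs in B cells, 0.555% in dendritic cells, 0.508% in NK cells, 0.411% in T cells, 0.362% in erythrocytes, and 0.168% in granulocytes of spleen. These shares pool mice that differ in level and in the labels they hold, and granulocytes reached 10 cells only in S1, S2, and S3. Within mice, B cells had the highest share among labels of at least 10 cells in 9 of 10 samples, and in H3 the label Monocytes was higher (1.79% against 1.48%). Thinned to 400 UMIs, 76.0% of B cells had an *Igkc* UMI, against 55.0% of dendritic cells, 37.9% of T cells, and 24.1% of granulocytes, a cell type that does not make antibody (87.3% of B cells without thinning). The label T cells in spleen had 161 CPM on 6 T cell markers, against 135 in the label B cells. It also had 623 CPM on the 5 B cell and 9155 on the 6 granulocyte markers, so its values are those of a label. Granulocytes were the deeper cells, with a median of 934 UMIs against 587.5 in B cells. The number of *Igkc* UMIs per *Ighm* UMI was 2.01 to 2.86 over the labels, lambda made up 30.3% to 48.9% of light chain UMIs, and *Ighd* 5.82% to 21.6% of heavy chain UMIs. Whether free RNA, doublets, or mislabeled cells gave these UMIs was not tested.

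**Figure D4:**
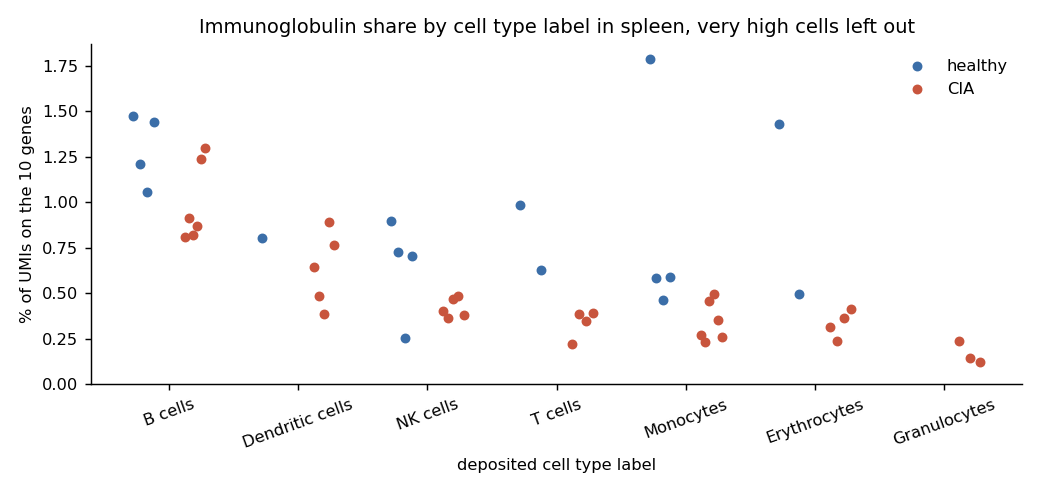
Each point is a mouse with at least 10 cells of a label in spleen, and the y axis gives the percent of UMIs on the 10 genes with the very high cells left out. Labels are ordered by their share over all mice from B cells (1.125%) to granulocytes (0.168%), and healthy (blue) and CIA mice (red) overlap in B cells.

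The very high cells were nearly all committed to a single chain of each kind. A single heavy chain gene held at least 95% of heavy chain UMIs in 112 of 120 cells, and a single light chain type held at least 90% of light chain UMIs in 110 of 120. *Jchain* was found in 120 of 120 and *Ighd* in 11. In spleen, the leading gene was *Ighm* in 79 of 87 cells, *Igha* in 3, *Ighg3* in 3, and *Ighg1* in 2. It was *Ighm* in 49 of 54 very high cells of healthy and in 30 of 33 of CIA mice.

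Class use over all spleen cells showed the same weight on IgM. *Ighm* made up 87.1% ± 2.498 (SD, n = 4) of heavy chain UMIs in healthy and 87.5% ± 6.43 (SD, n = 6) in CIA spleen (exact permutation test, two-sided, p = 0.910, adjusted p = 0.979 over 14 class tests). *Ighg1* made up 0.388% and 2.79% (exact permutation p = 0.443, adjusted p = 0.815), and the CIA mean rested on S1 at 12.1%. *Igha* made up 4.26% and 1.91% (exact permutation p = 0.186, adjusted p = 0.778), *Ighd* 3.87% and 5.70% (exact permutation p = 0.195, adjusted p = 0.778), and *Ighg3* 3.94% and 1.34% (exact permutation p = 0.262, adjusted p = 0.778). Kappa made up 66.1% ± 9.59 (SD, n = 4) of light chain UMIs in healthy and 72.9% ± 5.18 (SD, n = 6) in CIA spleen (exact permutation p = 0.181, adjusted p = 0.362 over 2 tests). The smallest p that 4 against 6 mice allow is 0.00476. With 1 mouse left out at a time, the difference was −3.72 to −0.753 percentage points for *Igha* and 4.18 to 11.3 for kappa. The values of −3.72 and 11.3 were those without H4, each with an exact permutation p of 0.0357 before adjustment. They are the largest of these runs, and the p-values do not allow for that choice.

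**Figure D5:**
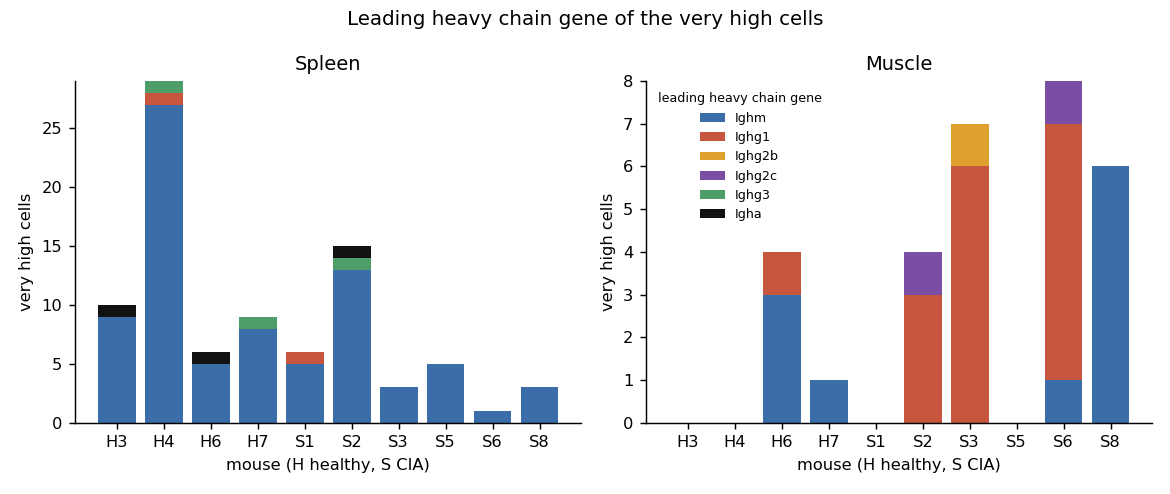
Stacked bars count the very high cells of each mouse in spleen (left) and muscle (right) by the heavy chain gene with the most UMIs in the cell. *Ighm* leads in each spleen sample, and *Ighg1* leads 15 of the 25 very high cells of CIA muscle, all in S2, S3, and S6.

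In muscle, the level of the 10 genes went with red cell lysis. The 10 genes held 0.479% to 2.93% of UMIs in the 6 lysed samples and 0.0139% to 0.0505% in the 4 others, and all 30 very high cells came from lysed samples. The 5 B cell markers were at 509 to 2210 CPM in the lysed samples and at 37.8 to 105 CPM in the others. Lysed and unlysed samples were found in both groups, 2 and 2 of the healthy and 4 and 2 of the CIA mice, and the part of lysis in the muscle levels was not tested beyond the fits with lysis as a term and within the lysed samples.

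Within the lysed samples, the share of the 10 genes was 0.756% in H6 and 0.479% in H7, and 0.483% in S2, 2.86% in S3, 1.06% in S6, and 2.93% in S8 (1.92% in S8 without shared barcodes). Very high cells made up 1.08% (4 of 370) and 0.223% (1 of 449) of the cells of H6 and H7. In S2, S3, S6, and S8 they made up 0.581% (4 of 689), 4.0% (7 of 175), 0.402% (8 of 1989), and 2.29% (6 of 262). Healthy and CIA mice overlapped, with means over all 10 mice of 0.326% ± 0.514 (SD, n = 4) and 1.21% ± 1.61 (SD, n = 6), and of 0.326% and 1.05% without shared barcodes. No very high cell was found among 70 cells of H3, 168 of H4, 45 of S1, and 348 of S5, with upper 95% Wilson limits of 5.20%, 2.24%, 7.87%, and 1.09%.

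The class of the very high muscle cells differed between mice. *Ighg1* led 3 of 4 very high cells in S2, 6 of 7 in S3, and 6 of 8 in S6, and 0 of 6 in S8, where *Ighm* led all 6. The other cells of CIA muscle were led by *Ighg2c* in S2 and S6, *Ighg2b* in S3, and *Ighm* in S6. In healthy muscle *Ighm* led 4 of 5 cells, and *Ighg1* led 1, in H6. Without the cells with shared barcodes, *Ighg1* led 15 and *Ighm* 4 of 22 cells in CIA muscle. Of the 30 very high muscle cells, 10 were labeled Monocytes, 8 T cells, 8 Macrophages, and 0 B cells.

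*Ighg1* was at 202 CPM in muscle of H6 and at 0 in H3, H4, and H7, and at 1224 CPM in S2, 3733 in S3, 876 in S6, 5.29 in S8, 2.45 in S5, and 0 in S1. S2, S3, and S6 were thus above all healthy mice, and the other 3 CIA mice were within their range. Outside the very high cells it still reached 1111 CPM in a CIA mouse, with a mean of 293 CPM ± 448 (SD, n = 6) in CIA and 0.965 CPM ± 1.93 (SD, n = 4) in healthy muscle. *Iglc1* was at 0, 12.6, 160, and 38.5 CPM in healthy muscle, and at 16167 CPM in S3, 3854 in S8, and 0 to 66.8 in the other CIA mice. *Ighm* was at 81.9 to 1530 CPM in healthy and at 59.5 (S1) to 6449 CPM (S8) in CIA muscle, and *Igkc* at 37.8 to 3899 and 59.5 to 14242 CPM. All of these groups overlapped.

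In the test over all muscle cells, 8 of the 10 genes were tested, the 8 log2 fold changes were positive, and 0 were called by edgeR, against 0.055% of 3634 genes. *Iglc1* had a log2 fold change of 5.69 (SE 2.04, adjusted p = 0.804) and *Ighg1* of 3.92 (SE 1.76, adjusted p = 1.00) with edgeR, and these 2 genes had an unadjusted p under 0.05, against 3.91% of all genes. DESeq2 called 0 of 8. These fold changes rested on few mice. Without H6, the only healthy mouse with *Ighg1* UMIs, *Ighg1* had a fitted 11.55, which is no bound, and without S2, S3, or S6 it did not pass the filter. *Iglc1* had 3.66 without S3, 7.07 without H6, and 2.09 without the very high cells. The median over the 8 genes was 1.26, against 0.05 over all genes tested. With lysis as a term, *Ighg1* had 3.67 (adjusted p = 0.624) and *Iglc1* 5.11 (adjusted p = 0.553), and within the 6 lysed samples *Ighg1* had 3.68 (adjusted p = 0.874) and *Iglc1* 5.55 (adjusted p = 0.729, edgeR). Neither fit called any of the 8 genes. The CIA effect was not shown to differ between muscle and spleen, with 0 of 9 genes called by edgeR for the interaction of organ and disease, against 0.647% of 4325 genes, and *Iglc1* at a log2 difference of 7.55 (adjusted p = 0.142, edgeR). Of these 9 genes, 3 had an unadjusted p under 0.05, against 6.45% of all genes.

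As a share of heavy chain UMIs in muscle, *Ighg1* made up 68.1% in S2, 72.5% in S3, 26.8% in S6, 1.92% in S5, and 0.0787% in S8, and 10.9% and 0 in H6 and H7. The other 3 muscle samples had fewer than 50 heavy chain UMIs and were left out. Among the samples kept, S5 alone had no red cell lysis, so the CIA mean holds an unlysed sample and the healthy mean does not. The means were 33.9% in 5 CIA and 5.43% in 2 healthy mice (exact permutation test, two-sided, p = 0.333, adjusted p = 0.778), and 0.0476 is the smallest p that 2 against 5 mice allow. *Ighm* made up 51.6% and 85.1% (exact permutation p = 0.286, adjusted p = 0.778). Kappa made up 66.6% and 75.0% of light chain UMIs (exact permutation p = 0.762), with 23.2% in S3, where *Iglc1* was high.

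Among the labels of muscle, the 10 genes took 1.22% of UMIs in B cells (185 cells) and 1.06% in cells labeled Myocytes outside the very high ones, and 0.0427% in endothelial cells. After thinning to 400 UMIs an *Igkc* UMI was found in 81.1% of B cells, 86.2% of Myocytes-labeled cells, 48.01% of T cells, and 9.58% of endothelial cells, which do not make antibody, with median UMIs of 527, 614.5, 579, and 842.5. In cells labeled T cells, 6 of the 10 genes were tested and 0 were called by edgeR, against 0.0511% of 1957 genes, with 1 at an unadjusted p under 0.05 (6.34% of all genes) and 0 called by DESeq2. *Ighg1* there had 0 UMIs in 350 cells of healthy mice and 528 in 933 cells of CIA mice, of which S3 had 376, S6 had 101, and S2 had 51. The cell numbers are over all mice, whereas the fit took only mice with at least 10 such cells (adjusted p = 0.146, edgeR). With 0 healthy UMIs, *Ighg1* passed the filter through the CIA mice alone. It was called by edgeR when S2, S3, or S6 was left out. Those fits held fewer CIA mice than the 3 required elsewhere, so nothing is drawn from these calls. In cells labeled Macrophages, where 3 genes were tested and 0 were called against 0.183% of 545 genes, *Ighm* had −1.48 and *Igkc* 1.01 (adjusted p = 0.723 and 0.889, edgeR). There 0 of the 3 had an unadjusted p under 0.05 and DESeq2 called 0 of 10, and none of the 10 genes passed the filter of edgeR in muscle fibroblasts, where DESeq2 tested 7 and called 0.

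Cells from 1 sample could share their variable region genes, the part of each chain that binds antigen. Among very high cells with at least 5 UMIs on both a heavy and a light chain variable gene, unannotated cells included, 65 spleen cells held 64 pairs and 23 muscle cells held 18. In muscle S6, 4 *Ighg1* cells shared Ighv7-3 with Igkv12-98, and in muscle S3, 3 *Ighg1* cells shared Ighv1-54 with Iglv1. The 3 cells of S3 had 785, 573, and 552 UMIs on *Iglc1*. Another cell of muscle S3 also carried Ighv1-54, with *Ighg2b* and Igkv6-15. In spleen, 2 cells of H4 shared Ighv1-4 with Igkv4-50, of which one was led by *Ighm* and the other by *Ighg3*. In lung, 2 *Igha* cells of H4, of which 1 was annotated, shared Ighv1-66 with Igkv1-117. Whether the cells that share a pair are separate cells of a clone or one cell's RNA under several barcodes was not tested.

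In lung, 1 of the 10 genes was tested, and it was not called, against 4.96% of 686 genes. *Igkc* was at 272, 1005, 155, and 438 CPM in healthy lung and at 49.2 to 282 CPM in CIA lung, with a log2 fold change of −1.62 (SE 0.48, adjusted p = 0.0618, edgeR). The highest healthy value, in H4, was from a sample with 2 very high cells, led by *Ighm* and by *Igha*. In joint, *Ighm* had 656 of its 716 UMIs in S5, of which a single very high cell labeled Fibroblasts held 406, and its log2 fold change was 1.14 (SE 1.13, adjusted p = 0.738, edgeR), against 0.127% of 2364 genes called. None of the 10 genes passed the filter of edgeR on low counts in joint fibroblasts, joint macrophages, or lung macrophages, where 1.68%, 10.3%, and 6.51% of all genes were called. In skin none of the 10 genes passed the filter, and none of 2180 genes was called (0.0%).

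Other genes of antibody-making cells were read from lists. Of the other constant region genes, *Ighg3* was tested in spleen and had −2.25 (adjusted p = 0.680, edgeR). Of 20 genes of the plasma cell program and antibody secretion, 12 were tested in spleen, all 12 had negative log2 fold changes, and 0 were called by edgeR (3 at an unadjusted p under 0.05), with a median of −0.59. *Mzb1*, a chaperone of antibody assembly, had −1.42 (adjusted p = 0.0921, edgeR), and *Hsp90b1*, *Ssr4*, and *Sec11c*, which act in protein folding and processing in the endoplasmic reticulum, had −0.19, −0.42, and −0.26. Of 15 genes of the B cell receptor complex and its signaling, 12 were tested with 0 called (2 at an unadjusted p under 0.05) and a median of −0.59. *Cd79b* and *Cd79a*, which encode the signaling partners of surface antibody, had −0.78 and −0.72, and *Cd22* and *Bank1* had −0.66 and −0.84. Of 11 genes of mature B cell identity, 10 were tested with 0 called (3 at an unadjusted p under 0.05) and a median of −0.69, and *Cd74*, *Ly6d*, *Ms4a1*, and *H2-DMb2* had −0.73, −0.36, −0.50, and −0.80. None of 12 genes of class switching and germinal centers and none of 7 genes of precursor B cells could be tested in spleen. Of 7 immunoglobulin receptor and transport genes 1 was tested, *Fcer1g*, the common gamma chain of Fc receptors, with 1.46 (adjusted p = 0.227, edgeR).

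In muscle, 12 genes of the plasma cell list were tested with 0 called (1 at an unadjusted p under 0.05), 1 was negative, and the median was 0.35. The median was 0.66 over 10 genes of the B cell receptor list, 0.70 over 8 genes of mature B cell identity, and 0.14 over 3 genes of class switching, with 0 called by edgeR in each and 0 at an unadjusted p under 0.05. *Mzb1* had 1.63, against 0.04 for *Hsp90b1*, 0.28 for *Ssr4*, and 0.34 for *Xbp1*. Of the B cell receptor list, *Cd79b* had 1.11, *Cd79a* 0.79, *Cd81* −0.50, and *Lyn* 0.03, and of mature B cell identity, *Cd74* had 0.56, *Ebf1* 0.39, *Cd83* 1.17, and *Ly6d* 0.83. The 3 genes of class switching were *Il4ra* (0.02), *Cd40* (0.14), and *Apex1* (1.31). *Fcer1g* and *Fcgr3*, which encodes an IgG receptor of myeloid cells, had −1.06 and −1.31 (adjusted p = 1.00 for each gene of these lists named here, edgeR). For the interaction of organ and disease *Fcer1g* was called, with a log2 difference of −2.52 (SE 0.59, adjusted p = 0.0462, edgeR), against 0.647% of 4325 genes.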

How the data were processed

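The authors aligned Seq-Well reads with STAR to GRCm38 per the paper's methods (the labels list GRCh38 and mm9, with no role given) and deposited raw UMI counts, not normalized, in a table of 34586 genes by 13240 cells, of which 12096 carry the authors' cell type labels, and no doublets were removed here. The 10 genes, the gene lists, and the tests were chosen with earlier results of these data known. The genes named were the 10 genes and, per list and in spleen and muscle, genes past the threshold or, where none passed, up to 4 with the highest mean level. The markers of the very high cells, *Cd74* in lung and joint, and *Fcer1g* in the interaction were named besides.

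Counts were summed per mouse and compared by edgeR 4.0.16 in R 4.3.3 (quasi-likelihood test, TMM factors, filterByExpr, Benjamini-Hochberg adjustment over all genes tested, threshold 0.05). Cell types were compared with at least 3 mice per group of at least 10 cells each. Class and kappa shares used samples with at least 50 heavy or light chain UMIs and exact permutation tests over mice. DESeq2 1.42.0, other scalings, filters, and terms, leaving out each mouse, and, chosen after seeing the data, leaving out shared barcodes and the lysed muscle samples alone were alternatives. Python 3.11.15 was used for the rest, with pandas 2.3.3, scipy 1.17.1, and matplotlib 3.10.9.

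Spleen and muscle samples of the same name come from the same mouse. Their deviations correlated by −0.31 to 0.35, and the mouse as a block changed no call of the interaction. The mice are separate animals. Spleen counts were also simulated over 2536 genes. There edgeR called 87.5% of 32 genes lowered by 2 on the log2 scale, 19.2% of 26 lowered by 1, and 0.126% of unchanged genes. The simulation also raised 47 genes by 1 and 50 by 2, so many genes changed at once. In the spleen data only 4 of 2927 genes were called, and the adjusted threshold is harder to pass when few genes change. The simulated rates are therefore not taken as those of the immunoglobulin genes in the spleen data.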

Additional observations from a re-analysis of the deposited data

Results flagged for a closer look

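In groups of 4 to 10 samples, 20 of 68 groups had a highest sample, or in 1 case a lowest, that stood apart from the others by Dixon's test at the 95% level. Chance gives about 1 in 20 only for independent, normally distributed values. Some of these groups were zeros beside a single sample with UMIs, which the test flags whatever the count. The same sample could also be flagged for more than 1 gene. The number flagged is therefore no measure of an excess. In the share of UMIs on the 10 genes these were lung H4 (0.253%), skin S3 (0.00235%), and skin H7 (0.000829%), the latter 2 from 3 UMIs and 1 UMI. In CIA muscle they were S3 for *Ighg1* (3733 CPM), *Ighg2b* (947 CPM), and *Iglc1* (16167 CPM), S8 for *Ighm* (6449 CPM) and *Iglc3* (693 CPM), and S6 for *Igha* (19.4 CPM). In healthy muscle H6 stood apart for *Ighg1* (202 CPM), *Jchain* (874 CPM), and *Igha* (3.81 CPM, a single UMI). In CIA spleen they were S1 for *Ighg1* (368 CPM, and 12.1% of heavy chain UMIs), S2 for *Ighg2b* (67.3 CPM) and *Iglc1* (1694 CPM), and S8 for *Igkc* (9545 CPM). In healthy spleen H4 stood apart for *Ighg1* (114 CPM) and *Ighg2b* (48.6 CPM), and H6 was low for *Jchain* (2623 CPM). Among the 1144 cells without a cell type label, which the comparisons left out, 13 were very high (1.14%), 7 of 377 from healthy and 6 of 767 from CIA mice.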

How the results depend on the processing

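Of the values that answer a comparison, 378 kept their direction and side of the threshold, 32 moved, 13 turned in sign, and 2 rose past the threshold over the alternatives run. The number of the 10 genes called in all spleen cells (0) was 5 with no filter on low counts, 5 with the replicate block, 4 with DESeq2, 2 with the experiment as a term, 1 with plain library sizes, 1 without shared barcodes, and 0 to 2 without a mouse (*Jchain* without S6, *Igkc* and *Iglc2* without S8). In all muscle cells (0) it was 3 with no filter and 2 with the replicate block (*Ighg1* and *Ighg2b*), and 0 without any mouse. It was 3 with no filter and 0 to 1 without a mouse in lung (0), 5 with no filter in the interaction (0), 3 in joint fibroblasts (0), 2 in lung macrophages (0), and 1 in muscle macrophages (0). In muscle T cells (0) it was 4 with no filter and 0 to 2 without a mouse. Under the label Monocytes (5) it was 2 with plain library sizes, 2 without the very high cells, and 2 to 4 without a mouse. The cause was not tested. Healthy and CIA mice of the same number are different animals that share only a number, with correlations of their deviations of 0.196 and 0.31 in spleen and −0.12 and 0.305 in muscle.

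The difference of *Ighm* in spleen class use (0.381 percentage points, CIA minus healthy) was −2.02 over the members alone, −0.87 in B cells, −0.149 as a mean over cells, −0.891 without shared barcodes, and −1.20 to 2.65 without a mouse. *Igha* in spleen ranged from −3.72 to −0.753 and kappa from 4.18 to 11.3 without a mouse. In muscle, *Ighd* was −2.54 as a mean over cells and −2.97 to 2.25 without a mouse, *Igha* −0.0483 to 0.100 without a mouse, and kappa 5.46 without the very high cells and −13.4 to 2.52 without a mouse. The difference in the share of very high spleen cells (−3.82) was −2.40 at a limit of 20%. Without a mouse, the log2 fold change was −0.74 to 0.12 for *Ighd* in spleen, and −0.54 to 1.75 for *Ighm*, −0.23 to 1.45 for *Iglc2*, and −0.16 to 1.73 for *Iglc3* in muscle, where S8 turned the sign, and 3.48 to 11.55 for *Ighg1* and 3.66 to 7.07 for *Iglc1* in muscle. Plain library sizes moved the median of all genes by 0.19 in muscle and 0.20 in size in joint. The low genes *Ighg2b* and *Igha* had 287 and 347 UMIs in all samples, and *Ighg2b* did not pass the filter in spleen or muscle, nor *Igha* in muscle.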

Other observations

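Over the 48 samples, the genes whose log level followed the summed level of the 10 genes most closely among 3178 genes were *E330020D12Rik* (Pearson r = 0.911), *Ms4a1* (0.877), *Ptpn18* (0.877), *Gm8369* (0.870), and *Mzb1* (0.868). The samples share mice and organs, so these values are a description. In lung, *Cd74*, the invariant chain of MHC class II, fell by 1.09 on the log2 scale (adjusted p = 0.00707, edgeR). It fell by 1.21 in lung macrophages (adjusted p = 0.00322) and fell by 2.22 in joint macrophages (adjusted p = 0.00997, edgeR). In muscle S2, 3 of 4 very high cells carried Ighv3-6, counted without the limit of 5 UMIs on both chains. The cells that passed that limit differed in their light chain variable gene (Igkv3-10 and Igkv3-5).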
